A study of Mus musculus with 6 samples.

Results

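Glucocorticoids are steroid hormones of the adrenal cortex that enter cells and bind receptors in the cytosol. The bound receptor moves to the nucleus, attaches to glucocorticoid response elements in DNA and raises or lowers the transcription of nearby genes. The choroid plexus, the secretory epithelium that makes cerebrospinal fluid, lies outside the blood-brain barrier and is exposed to circulating hormone. A small set of genes responds to the hormone in many tissues and is commonly read as a measure of receptor activity.

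The 10 genes described here are 2 receptors (Nr3c1 and Nr3c2), an enzyme that regenerates active hormone within cells (Hsd11b1) and 7 genes known to be induced through these receptors (Tsc22d3, Fkbp5, Plin4, Sgk1, Zbtb16, Klf9 and Ddit4). They were chosen by name, and their probe sets are those that the platform annotation assigns to that symbol alone. This gave 28 of the 45037 probe sets that are not array controls. At the gene level it gave 10 of 18193 genes, each read by its brightest probe set. Of these, 9 reached the brightness set for testing, a mean log2 intensity of 4.92, as did 12681 genes in all. Hsd11b1 lay below it and is given as measured.

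The tissue was whole choroid plexus of the lateral ventricles from male CD1 mice, an outbred stock, with no treatment or mutation named in the labels for either age. Total RNA of 3 mice aged 18 months and 3 mice aged 2 months was hybridised to 1 Affymetrix array per mouse, and the plexuses of the left and right ventricle of an animal were combined. CD1 mice differ genetically from one another, so that the spread within an age includes differences between individuals. Values are log2 of the deposited intensities, and a difference is 18 months minus 2 months. A probe set compares the same transcript between mice, and its level was not set against that of another probe set.

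Ttr, the thyroxine carrier made by the plexus epithelium, was near the top of the scale on every array (14.25 to 14.36 at 18 months, 14.46 to 14.48 at 2 months). The mean level of 8 epithelial markers, Ttr among them, ran from 12.50 to 12.62 at 18 months and from 12.42 to 12.57 at 2 months. Single markers differed from that mean. Ttr was lower at 18 months with separate ranges (difference -0.17, SE 0.15), Aqp1 was higher with separate ranges (0.64, SE 0.24), and the others overlapped. Levels of brain-tissue markers also varied between the samples. The mean of 10 neuronal markers ran from 6.71 to 8.48 at 18 months and from 6.85 to 8.42 at 2 months, with replicate 3 highest at each age. In whole tissue, fewer cells of a type and less RNA per cell cannot be told apart.

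No gene on the array passed an adjusted p of 0.05 between the ages in the limma fit over 12681 genes (0% called), where Gh had the smallest adjusted value, 0.0540. Without adjustment, that fit placed 510 genes (4.02%) higher and 384 (3.03%) lower at 18 months at a threshold of 0.05. The unmoderated test of the 2 ages also called 0 genes after adjustment. Of the 9 tested genes of the pathway, 6 were above 0 and 3 below, with a median log2 difference of 0.24, against 6393 above and 6288 below and a median of 0.00 over all genes tested. The median was 0.12 when all probe sets of a gene were averaged, a setting in which Fkbp5 was too dim to test. Over the 9 it was 0.42 without 18-month replicate 1 and 0.38 without 2-month replicate 3. Without 18-month replicate 1 the brightest probe set of Nr3c1 changed, and the difference of the newly chosen one was that median. In 3 of the 9 all mice aged 18 months lay above all mice aged 2 months, and in 0 the reverse held. That number was 2 with a brightness filter at the 60th percentile, which Fkbp5, Plin4 and Zbtb16 did not reach. It was 2 with averaged probe sets, where Fkbp5 was too dim. With each array centred on its median it was 2, and without 2-month replicate 1 it was 5. Separate ranges of that kind were found in 7.06% of all genes tested in the upward direction and in 6.25% in the downward direction. At an unadjusted p under 0.05, 2 of the 9, Tsc22d3 and Fkbp5, were higher and 0 lower. The count was 1 (Tsc22d3) without the arrays at the ends of principal component 1, which were 18-month replicate 3 and 2-month replicate 2. It was also 1 (Fkbp5) without the array of each age that held most brain-tissue signal, replicate 3 in both. The choice of genes was made with earlier results of these data known, so that these counts describe the genes and are no independent evidence of their direction.

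The printed promoter stretches below mark matches to DNA letters of the kind the receptor binds, where a stretch holds any. Promoter windows in RefSeq (GRCm38.p6) ran from 250 bases before a transcription start to 50 after it. They were searched for 8 of the 10 genes, 15 windows in all, since Sgk1 has 6 and Tsc22d3 has 3 start sites. Windows on the chromosome of Nr3c1 were left out for these genes, so its promoter was not searched, and no window was given for Zbtb16. The shares over all windows include that chromosome. Each window was searched on both strands for the core ACANNNTGT, for the half-site AGAACA and for the full palindrome, in which a half-site on each side of 3 free bases makes the classical response element and which therefore holds both shorter motifs. The core was found in 2 of the 15 windows, both of Sgk1, and in 6.85% of all 32851 windows. The half-site was in 4 of the 15, of which 3 belong to Sgk1 and 1 to Tsc22d3, and in 19.0% of all windows. The full palindrome was in 1 Sgk1 window and in 3 of all 32851 windows (0.00913%). The 250 bases before the start are shown for that Sgk1 window, for the Tsc22d3 window with a half-site and for the single Fkbp5 window, because Sgk1 showed no separation between the ages while Tsc22d3 and Fkbp5 differed most among these genes in p. Capitals mark half-sites and the palindrome, and each run reads from 5′ to 3′ on the gene's strand.
Sgk1, chr10:21993640-21993889, plus strand: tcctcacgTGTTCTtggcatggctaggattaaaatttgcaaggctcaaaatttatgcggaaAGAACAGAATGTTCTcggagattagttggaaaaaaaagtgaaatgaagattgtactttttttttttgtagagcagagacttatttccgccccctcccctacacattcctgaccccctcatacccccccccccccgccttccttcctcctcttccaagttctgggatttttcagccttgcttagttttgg
Tsc22d3, chrX:140600523-140600772, minus strand: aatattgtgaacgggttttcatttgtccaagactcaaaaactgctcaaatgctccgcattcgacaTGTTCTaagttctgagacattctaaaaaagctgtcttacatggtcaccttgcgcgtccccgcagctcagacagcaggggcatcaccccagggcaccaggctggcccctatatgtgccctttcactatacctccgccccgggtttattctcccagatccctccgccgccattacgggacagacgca
Fkbp5, chr17:28486150-28486399, minus strand: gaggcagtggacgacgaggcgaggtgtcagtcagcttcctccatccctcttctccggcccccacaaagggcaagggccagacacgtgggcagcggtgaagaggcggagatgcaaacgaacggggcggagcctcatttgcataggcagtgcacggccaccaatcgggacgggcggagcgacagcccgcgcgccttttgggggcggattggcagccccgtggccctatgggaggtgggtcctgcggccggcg

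The palindrome of Sgk1 begins 189 bases before the start site, and a further half-site lies 242 bases before it. In Tsc22d3 the half-site begins 185 bases before the start, and the Fkbp5 stretch holds none of these letters. These matches describe the windows only, since response elements also lie far from start sites.

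Nr3c1 encodes the glucocorticoid receptor. Its brightest probe set read 8.87, 8.51 and 8.08 in the mice aged 18 months and 8.35, 7.86 and 7.97 in those aged 2 months. The highest mice were older and the lowest were younger, but the third older mouse lay below one young mouse, so the ages overlapped. The difference was 0.43 (SE 0.26, 95% interval -0.19 to 1.05, limma adjusted p = 0.789). The 5 probe sets bright enough to test did not point one way: 3 were above 0 and 2 below, from -0.59 to 0.43. In a fit over 27022 probe sets, the one nearest in brightness gave 8.47, 8.51 and 8.38 at 18 months against 8.07, 8.0 and 8.0 at 2 months. It separated the ages with a difference of 0.43 (SE 0.16, limma adjusted p = 0.742). The probe set with the lowest difference read 7.42, 6.66 and 6.39 against 6.41, 7.63 and 8.21. Its spread within the young mice (SD 0.92) exceeded its difference. With the mean of all probe sets Nr3c1 differed by 0.03, and without 18-month replicate 3 the difference of the brightest was 0.63.

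Nr3c2 encodes the mineralocorticoid receptor, which also binds glucocorticoids with high affinity and is abundant in neurons of the hippocampus. The intensities were 5.88, 6.61 and 7.02 at 18 months and 5.84, 6.19 and 6.77 at 2 months, a complete overlap in which replicate 3 was highest at each age. The difference was 0.24 (SE 0.36, 95% interval -0.64 to 1.11, limma adjusted p = 0.917). Without 18-month replicate 3 it was -0.02.

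Hsd11b1 converts the inert keto form of corticosterone back to active hormone inside cells. Its probe set read 4.96, 3.87 and 4.16 at 18 months and 4.62, 4.56 and 4.65 at 2 months. These values lie around the highest mean of 27 control probe sets for bacterial transcripts, 4.51, and the ages overlapped, so that no level above background could be stated. Hsd11b2, which carries out the opposite reaction, read 2.91 to 3.59 on the 6 arrays, all below that control. H6pd supplies the cofactor for the Hsd11b1 reaction and had a difference of 0.85 (SE 0.46, limma adjusted p = 0.777). It read 8.11, 7.51 and 8.05 at 18 months against 7.19, 7.87 and 6.07 at 2 months, with overlap.

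Tsc22d3 encodes GILZ, a leucine zipper protein that the hormone induces strongly and that restrains inflammatory transcription factors. The brightest probe set read 7.27, 6.84 and 7.47 at 18 months and 6.48, 5.57 and 5.79 at 2 months. Every older mouse lay above every young one, by a gap of 0.36 between the nearest mice. The difference was 1.25 (SE 0.30, 95% interval 0.53 to 1.96), or 2.37-fold, with an unadjusted p of 0.00469 and a limma adjusted p of 0.508 over all genes, which misses the threshold. All 3 probe sets that were bright enough showed separate ranges. The second read 6.59, 6.36 and 6.69 against 6.29, 5.92 and 5.97, a difference of 0.49 (SE 0.20). The third read 5.24, 5.74 and 6.03 against 5.02, 4.83 and 4.98, a difference of 0.73 (SE 0.24). These sets read the same gene and share RNA, so they are no independent replicates. The fourth, at a mean of 2.51, lay in the range of the bacterial controls and differed by -0.05. Leaving out each mouse in turn gave differences from 1.06 to 1.51, and with brain-tissue markers as a covariate it was 1.22. Averaging all 4 probe sets, the dim one included, gave 0.60.

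**Figure D1:**
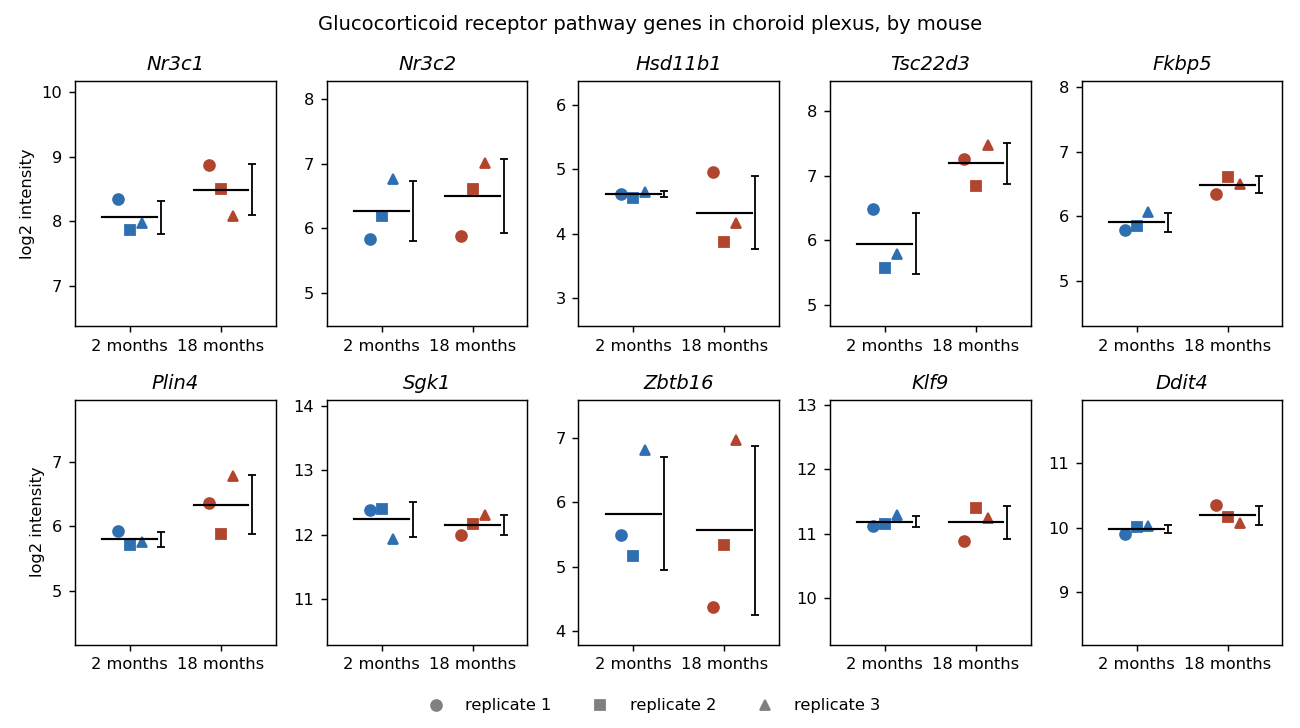
Log2 intensity of the probe set that stands for each gene, by mouse, in choroid plexus of mice aged 2 months (blue) and 18 months (red). Marker shapes give the replicate number, horizontal lines the mean and error bars the SD over 3 mice, and all panels span the same range; Tsc22d3, Fkbp5 and Ddit4 have no overlap between the ages, by 0.36, 0.28 and 0.04.

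Fkbp5 encodes FKBP51, a co-chaperone that lowers the receptor's affinity for hormone and closes a short feedback loop. Its brightest probe set read 6.35, 6.61 and 6.51 at 18 months and 5.79, 5.85 and 6.07 at 2 months. The ages did not overlap, with 0.28 between the nearest mice, and the SD was small at 18 months (0.13) and at 2 months (0.15). The difference was 0.59 (SE 0.17, 95% interval 0.18 to 0.99), or 1.5-fold, with an unadjusted p of 0.0122 and a limma adjusted p of 0.613. The 2 other probe sets were dim, at means of 4.22 and 2.73, and differed by 0.10 and -0.27. Without any one mouse the difference stayed between 0.52 and 0.67, and it was 0.55 with the brain-tissue covariate.

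Plin4 encodes perilipin 4, a lipid-droplet coat protein best known from fat cells. It read 6.36, 5.88 and 6.78 at 18 months and 5.93, 5.70 and 5.75 at 2 months. A single older mouse, replicate 2, lay just under the highest young mouse. The difference was 0.54 (SE 0.26, 95% interval -0.07 to 1.15, limma adjusted p = 0.744). It was 0.32 without 18-month replicate 3 and 0.77 without 18-month replicate 2. Of 4 adipocyte markers with a probe set only Cidec and Fabp4 were bright enough to test, and the defining Adipoq, at a mean of 2.52, lay below the bacterial controls' highest mean. Cidec was lower at 18 months with separate ranges (difference -0.30, SE 0.15, limma adjusted p = 0.755), and Fabp4 overlapped (difference 0.86, SE 0.47). The mean of both overlapped between the ages (5.05 to 5.73 at 18 months, 4.99 to 5.55 at 2 months).

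Ddit4 encodes REDD1, an inhibitor of the growth kinase mTORC1 that hormone and low oxygen induce. It read 10.35, 10.16 and 10.07 at 18 months against 9.91, 10.01 and 10.03 at 2 months. The ranges were separate by only 0.04. The difference was 0.21 (SE 0.16, 95% interval -0.18 to 0.60, limma adjusted p = 0.833), or 1.16-fold.

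Sgk1, a kinase that raises sodium transport and is a classical target of both receptors, read 11.99, 12.16 and 12.30 at 18 months and 12.39, 12.40 and 11.93 at 2 months. The lowest and the highest array were both from young mice. The difference was -0.09 (SE 0.20, 95% interval -0.57 to 0.40, limma adjusted p = 0.951). This is the gene with the full palindrome printed above.

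Klf9, a zinc finger transcription factor induced by glucocorticoid and thyroid hormone, had 7 probe sets, of which 6 were bright enough to test. The brightest read 10.89, 11.40 and 11.24 at 18 months and 11.12, 11.16 and 11.29 at 2 months, and older mice held both ends of the range. The difference was -0.01 (SE 0.19, 95% interval -0.47 to 0.45, limma adjusted p = 0.993). Across the 6 probe sets differences ran from -0.27 to 0.12, with 2 above 0 and 4 below. One of them separated the ages downward, at 10.15, 10.29 and 10.07 against 10.60, 10.30 and 10.42, although its difference of -0.27 (SE 0.18) had a limma adjusted p of 0.852. Without 18-month replicate 1, the lowest array, the difference of the brightest was 0.13.

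Zbtb16 encodes PLZF, a transcriptional repressor that responds strongly to the hormone in many cell types. Its brightest probe set read 4.38, 5.34 and 6.96 at 18 months and 5.49, 5.17 and 6.81 at 2 months. The 4.38 of 18-month replicate 1 lay below the highest mean of the bacterial controls, 4.51. Replicate 3 of each age stood far above the others, and the spread within an age (SD 1.31 and 0.87) exceeded the difference of -0.26 (SE 0.72, 95% interval -1.99 to 1.46, limma adjusted p = 0.957). The sign turned without 18-month replicate 1 (0.33) or 2-month replicate 3 (0.23). A second probe set read 3.63, 5.19 and 5.51 against 5.45, 4.10 and 6.14, with a difference of -0.45 (SE 0.67). Its 3.63 and 4.10 also lay below that control mean. The last differed by 0.01 (SE 0.25).

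**Figure D2:**
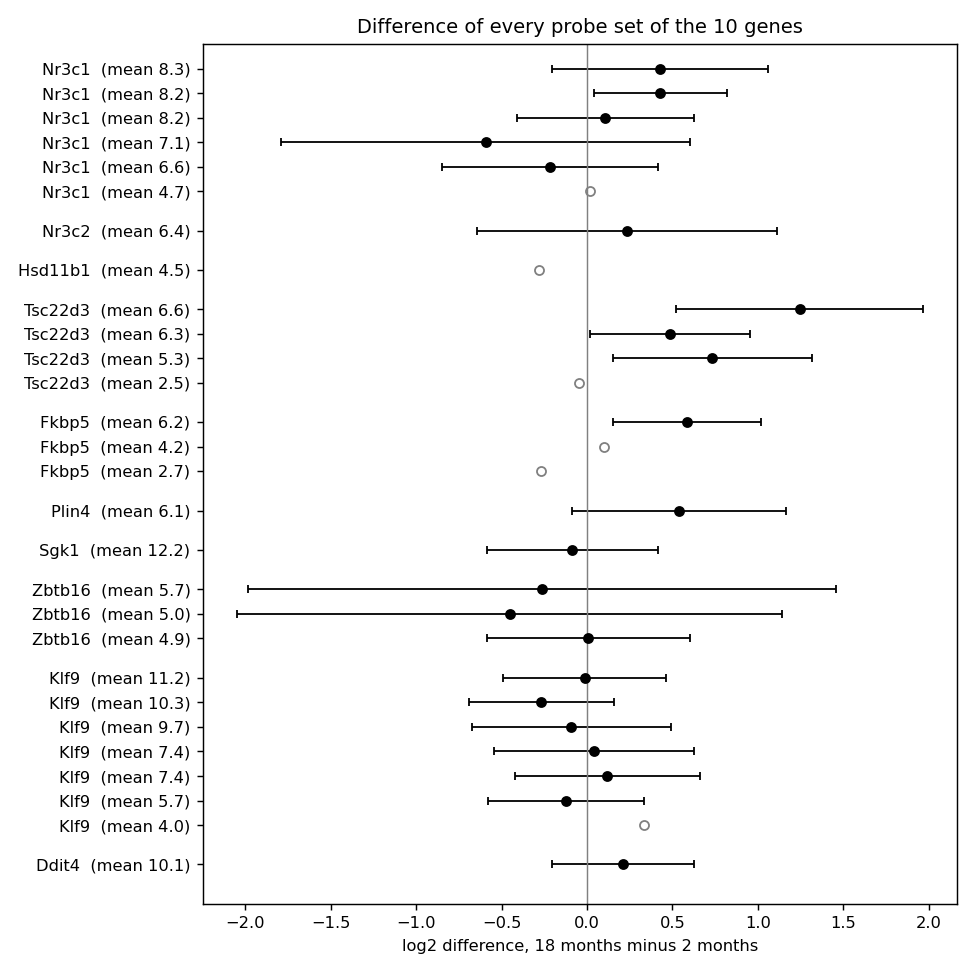
Log2 difference between 18 and 2 months for all 28 probe sets, in order of brightness within each gene, with the mean log2 intensity beside the name. Bars are 95% confidence intervals from the limma fit over probe sets, and open circles are the 6 probe sets too dim to test; the 3 brighter sets of Tsc22d3 lie between 0.49 and 1.25, while those of Klf9 lie on both sides of 0.

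Of the 22 member probe sets that were bright enough, 13 were above 0 and 9 below. The ranges of the ages were separate and higher at 18 months for 6 (3 of Tsc22d3 and 1 each of Fkbp5, Ddit4 and Nr3c1), against 6.67% of all 27022 probe sets. For 1, of Klf9, they were separate and lower, against 5.89% of all. None of the 22 passed an adjusted p of 0.05 in the limma fit over probe sets, which called 1 of 27022 (0.0037%), a probe set without a single gene symbol. At an unadjusted p under 0.05 that fit had 5 of the 22 higher, against 3.66% of all probe sets, and 0 lower, against 2.81%. Of these 5, 3 were of Tsc22d3 and 1 each of Fkbp5 and Nr3c1, so that 1 gene makes up most of the count. Of the 7 induced genes 4 were above 0, from 0.21 to 1.25, and the other 3 lay between -0.26 and -0.01. The order of the mice also varied from gene to gene. Of the older mice, replicate 3 was highest for Tsc22d3 and Plin4, replicate 2 for Fkbp5 and replicate 1 for Ddit4.

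Zbtb16 and Nr3c2 were highest in the arrays with the most brain-tissue signal. A brain score, the mean log2 level of 17 neuronal and oligodendrocyte markers after centring each on its mean, was 0.94 and 0.78 in replicate 3 of the older and the younger mice and between -0.95 and 0.10 in the other arrays. Over the 6 arrays Zbtb16 had a Pearson r of 0.90 with the score (exact permutation p = 0.0292, adjusted p = 0.238 over 9 genes) and a Spearman rho of 0.89 (exact permutation p = 0.0333, adjusted p = 0.300). Nr3c2 had an r of 0.84 (exact permutation p = 0.0528, adjusted p = 0.238) and a rho of 0.77 (exact permutation p = 0.103, adjusted p = 0.463). Without the 2 arrays farthest from the median score, r was 0.96 and 0.89 over 4 arrays. Over the same 4 arrays r was -0.92 for Nr3c1, -0.90 for Tsc22d3 and -0.88 for Plin4, against -0.29, 0.27 and 0.37 over all 6, so that their sign or size rests on the arrays left out. No relation passed the correction. For the other 7 genes r ran from -0.29 to 0.59, with adjusted p from 0.650 to 0.760 by the exact permutation test. The score itself overlapped between the ages. With the score as a covariate, the age difference of Zbtb16 was -0.60 and that of Nr3c2 0.10.

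**Figure D3:**
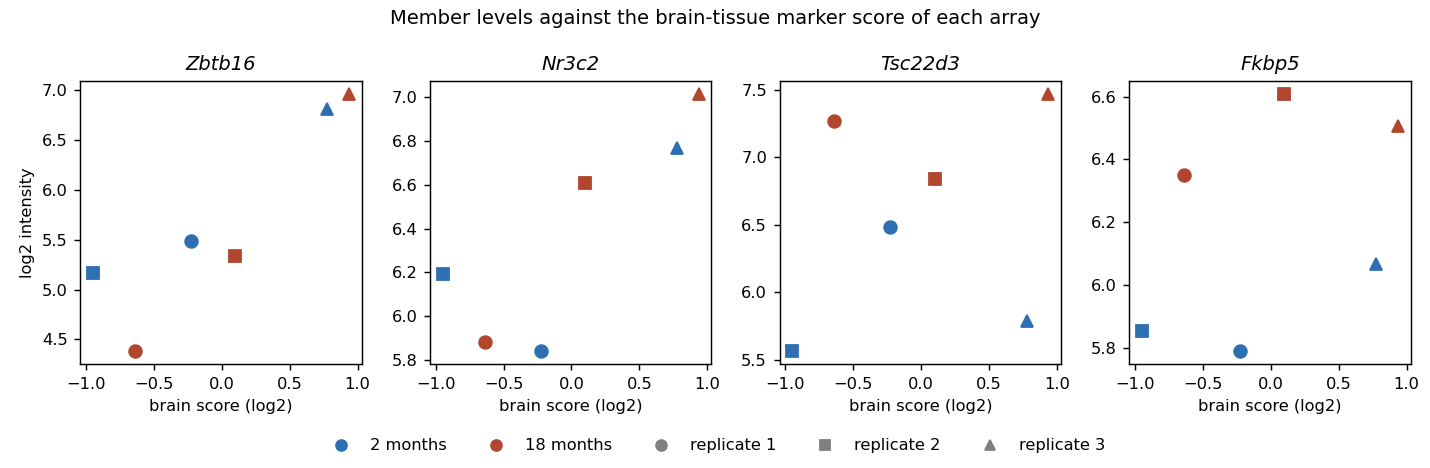
Log2 intensity of 4 genes against the brain score of each array (mean centred log2 level of neuronal and oligodendrocyte markers), with 6 arrays coloured by age and shaped by replicate. Zbtb16 and Nr3c2 are highest in the 2 arrays with scores of 0.78 and 0.94, whereas Tsc22d3 and Fkbp5 are higher in each older mouse at low and high scores.

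A further list held 30 genes known to be induced by glucocorticoids, all with a probe set. It was written with earlier results of these data known. Of 25 tested, 20 were above 0 and 5 below, with a median difference of 0.25. Over all genes tested 6393 were above 0 and 6288 below, with a median of 0.00. The counts of the list are no independent evidence of a direction. Its median was 0.16 when genes of any brightness were included, 0.15 without 18-month replicate 3, 0.14 without 2-month replicate 1 and 0.13 without the arrays at the ends of component 1. None had an unadjusted p under 0.05 in either direction by limma, and 0 had an adjusted p under 0.05. The ranges were separate in 1, Mt1, which encodes a metal-binding metallothionein. It read 11.60, 11.48 and 11.88 at 18 months against 11.35, 11.33 and 11.43 at 2 months, a difference of 0.28 (SE 0.18, limma adjusted p = 0.791). The smallest p belonged to Tgm2, the tissue transglutaminase gene, at -0.66 (SE 0.31, limma adjusted p = 0.744). After Tgm2 and Mt1 came Nfkbia, the NF-kappa-B inhibitor gene, at 0.28 (SE 0.18) and Anxa1, which encodes the anti-inflammatory protein annexin A1, at 0.53 (SE 0.36). Per1, a clock gene that the hormone also induces, read 7.48, 8.0 and 7.16 at 18 months against 7.97, 7.10 and 5.16 at 2 months. One young mouse was far below the others, and the difference was 0.81 (SE 0.69, limma adjusted p = 0.848).

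The receptor works with chaperones that hold it ready for hormone and with cofactors that it recruits to DNA. Of 19 such genes listed, 14 had a probe set and all 14 were tested. There were 8 above 0 and 6 below, the median was 0.02, and 0 had an unadjusted p under 0.05 or separate ranges. The smallest p values belonged to the coactivator genes Ncoa3 (0.29, SE 0.22) and Crebbp (-0.30, SE 0.27), the remodeller gene Smarca4 (0.20, SE 0.24) and the chaperone gene Hsp90aa1 (-0.14, SE 0.17). Fkbp4, whose protein competes with FKBP51 for the receptor complex, differed by -0.14 (SE 0.18), a direction opposite to that of Fkbp5, and the difference between them was not tested. Among steroid-handling genes only 5 of 11 with a probe set were bright enough. Besides H6pd these were Scnn1b, a subunit of the epithelial sodium channel (0.47, SE 0.26), Nedd4l, the ubiquitin ligase that Sgk1 inhibits (-0.57, SE 0.29), the drug efflux pump gene Abcb1a (0.68, SE 0.85) and Pgr, and all overlapped between the ages.

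**Figure D4:**
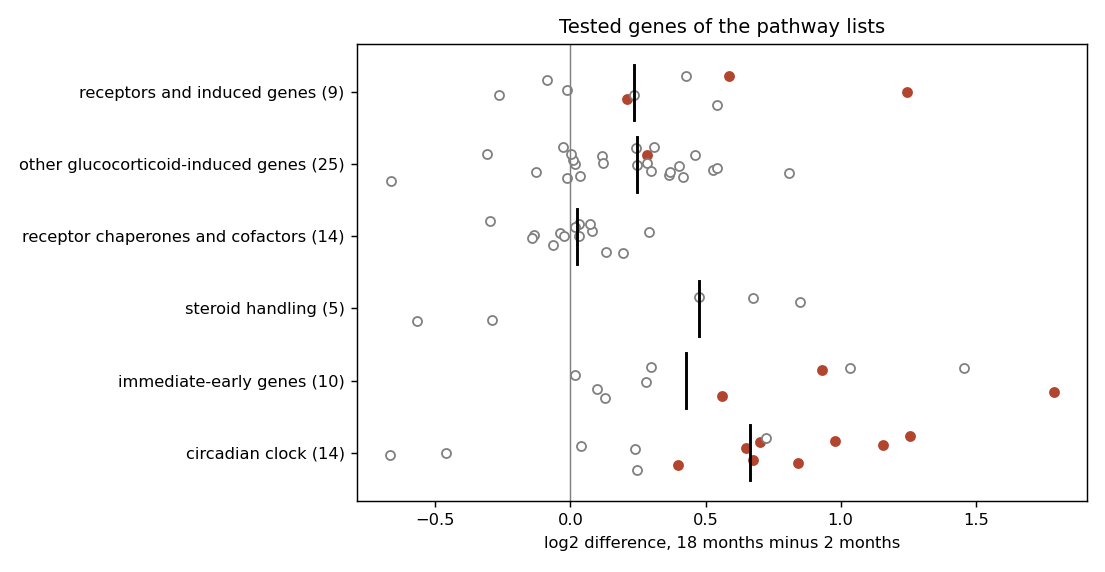
Log2 difference between 18 and 2 months for each tested gene (circles) of the receptors and induced genes and of 5 further lists, with the number tested in brackets and black bars at the medians. Filled circles are genes whose ranges are separate; the median is 0.24 for the receptors and induced genes, 0.25 for other induced genes, 0.02 for chaperones and cofactors and 0.66 for the circadian clock.

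Corticosterone release follows the time of day and acute stress, and a list of genes that respond to each was read in the same samples. Of 14 tested clock genes 12 were above 0 and 2 below (Arntl at -0.46 and Npas2 at -0.67), with a median of 0.66. In that list 8 had separate ranges upward, against 7.06% of all genes tested. By limma 7 were higher at an unadjusted p under 0.05, against 4.02% of all, and 0 passed an adjusted p of 0.05. The mean level of the list ran from 8.04 to 8.17 at 18 months and from 7.58 to 7.68 at 2 months. Per3 read 8.33, 7.96 and 8.42 against 7.24, 7.29 and 6.71 (difference 1.16, SE 0.23, limma adjusted p = 0.390). Immediate-early genes, whose transcription starts quickly after handling or another stimulus, were above 0 in 10 of 10 tested, with a median of 0.43. Of these 3 had separate ranges upward (7.06% of all genes) and an unadjusted p under 0.05 (4.02% of all), and 0 passed an adjusted p of 0.05 by limma. Their mean level ran from 7.12 to 7.33 at 18 months and from 6.26 to 6.87 at 2 months. Fos read 7.79, 7.98 and 8.91 against 5.54, 6.92 and 6.85 (difference 1.79, SE 0.47, limma adjusted p = 0.568). The labels used here give no time of death for either age, and the part of time of day or handling in Tsc22d3 and Fkbp5 was not tested.

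Markers of other cells were read in the same way, and 0 of those tested passed an adjusted p of 0.05 by limma. Of 7 macrophage markers 7 were above 0, and 2 (Lyz2 at 1.36 and Aif1 at 1.34) had separate ranges and an unadjusted p under 0.05. Over all genes tested the shares in that direction were 7.06% and 4.02%. Their mean was 7.71, 7.0 and 7.84 in the older mice and 6.88, 6.43 and 6.82 in the young ones. Tsc22d3 had the same order over the 6 arrays, whereas Fkbp5, Plin4 and Ddit4 had other orders. This match was seen after the values were known and was not tested. Of 6 pituitary markers 3 were bright enough to test, with Gh and Pomc above 0 with separate ranges and Lhb at -0.04. The mean of these 3 ran from 7.68 to 8.81 at 18 months and from 5.95 to 6.54 at 2 months. Among those too dim to test, Prl (3.30) and Cga (2.26) were also higher with separate ranges, and Tshb (0.44) overlapped. Gh, the growth hormone gene, read 10.40, 10.18 and 9.08 against 4.65, 5.63 and 4.44. Neuronal, oligodendrocyte, astrocyte, stromal and endothelial or mural marker means overlapped between the ages, although single markers did not. Among 6 stromal markers 5 were below 0 (median -0.50), with Dcn (-0.72) and Col1a2 (-0.48) separate and lower, while Pdgfra was 3.85-fold higher (limma adjusted p = 0.118). The oligodendrocyte marker Mog was separate and higher, by 1.75. The part of these cells in the difference of Tsc22d3 and Fkbp5 was not tested.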

How the data were processed

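The authors deposited 1 table of normalized array intensities, made with RMA per the submitters' processing notes (version not given in the sources used here). The intensities were on a linear scale from 2.47 to 26820.7, and their log2 was taken. RMA evens out the distributions of the arrays. The RNA was amplified before hybridisation, per the labels. Gene names came from the annotation of the array (34945 with 1 symbol, 932 with several, 9160 with none). The brightest probe set stood for a gene, and genes at or above the 40th percentile of mean level were tested.

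The age difference was fitted by lmFit and eBayes of the limma package (3.58.1, under R 4.3.3), two-sided and without covariate, with Benjamini-Hochberg adjustment over all 12681 genes or 27022 probe sets and a threshold of 0.05. The script was first tested on simulated data. The number of arrays, 3 per age, limits the precision of every value. A rule set which genes to name: all 10 genes of the pathway, up to 4 genes of smallest p in each further list, and Per1, Ttr, Snap25, Mbp, Fos and Hsd11b2. It was not followed in full. Snap25, Mbp, Fosl2, Jun, Egr1, Bhlhe40, Hlf and Dbp are among the genes of the rule whose values are not given. Fkbp4, Pgr, Adipoq, Arntl, Npas2, Prl, Cga and Tshb fall outside that rule and were chosen after their values were seen. The limma p-values set the age difference against the spread between mice of the same age, estimated with information shared over all genes. The permutation p-values of the brain score are taken over all 6 arrays. The genes, lists and tests were chosen with earlier results of these data known. Promoter sequences are from RefSeq (GRCm38.p6).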

Additional observations from a re-analysis of the deposited data

How the results depend on the processing

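Tsc22d3, Fkbp5, Plin4, Ddit4 and Nr3c1 stayed above 0 and Sgk1 below 0 under every alternative in which they were tested (testing all genes, a filter at the 60th percentile, averaging every probe set of a gene, quantile normalization, median centring, array weights, a brain-tissue covariate and leaving out each mouse). In these settings 0 of the 9 genes tested in the main fit reached an adjusted p of 0.05 by limma. Hsd11b1 is not covered by this count. Fkbp5 was not tested with the 60th percentile filter or with averaged probe sets, where it was too dim. Plin4 and Zbtb16 were likewise too dim for the 60th percentile filter. Tsc22d3 ranged from 0.60 to 1.51 (adjusted p from 0.434 to 0.827) and Fkbp5 from 0.52 to 0.67 (adjusted p from 0.529 to 0.853).

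Over all genes, 4 passed with the 60th percentile filter, 5 with averaged probe sets, 5 with median centring, 4 with array weights and 1 with the brain-tissue covariate, against 0 in the fit reported; the cause was not tested. The median of the pathway genes was 0.12 with averaged probe sets and 0.17 to 0.42 without single mice, highest without 18-month replicate 1 (0.42) and without 2-month replicate 3 (0.38). The number with an unadjusted p under 0.05 was 1 with the 60th percentile filter, which tests fewer genes, and 1 with averaged probe sets. The next settings were added after the data were seen. Without the arrays at the ends of principal component 1 (18-month replicate 3 and 2-month replicate 2) that number was 1, and without the array of highest brain score in each age it was 1. Separate ranges numbered 2 with the 60th percentile filter, averaged probe sets or median centring, and 3 to 5 without single mice, 5 of them without 2-month replicate 1, and fewer mice make separate ranges easier to reach. Directions turned for Klf9, Nr3c2 and Zbtb16. Klf9 was 0.00027 with averaged probe sets, 0.013 with quantile normalization, 0.013 with array weights, 0.0034 without the arrays of highest brain score and -0.12 to 0.13 without single mice. Nr3c2 was -0.059 without the arrays at the ends of component 1 and -0.021 to 0.55 without single mice, and Zbtb16 was -0.96 to 0.33 without single mice and -1.29 without the arrays at the ends of component 1. In leave-one-out fits the brightest probe set of Nr3c1 could change. It did so without 18-month replicate 1, where the median of 0.42 was the difference of the newly chosen Nr3c1 probe set.

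Replicate numbers recur at each age, but deviations of same-numbered mice were at most weakly correlated, so they were not treated as pairs. The correlations were -0.02, 0.02 and 0.17 for replicates 1, 2 and 3. The value of replicate 3 was the highest of all pairings between the ages, and the next was 0.14. In this balanced design the replicate block and the ordinary 2-sample test leave each difference as it is (1.25 for Tsc22d3, 0.59 for Fkbp5) and change only its error. With the replicate block 0 genes passed, and the adjusted p was 0.610 for Tsc22d3 and 0.673 for Fkbp5 by limma.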
